A study of Mus musculus with 12 samples.

Results

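The 9 genes followed here make, store, recapture and sense dopamine. They were taken by their gene names, and they are Th and Ddc for synthesis, Slc18a2 and Slc6a3 for transport, Drd1a and Drd5 for the D1-like receptors, and Drd2, Drd3 and Drd4 for the D2-like receptors. On the array 14 of 41174 probes carried one of these names, out of 27827 symbols. Of the 9 genes, all 9 had a probe that could be tested in every comparison.

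Dopamine is made from tyrosine by tyrosine hydroxylase, the rate-limiting enzyme, and aromatic L-amino acid decarboxylase. The vesicular monoamine transporter loads it into vesicles and the dopamine transporter takes it back from the synapse. D1-like receptors raise cAMP and D2-like receptors lower it. In the hypothalamus, dopamine neurons of the arcuate nucleus hold back the release of prolactin by the pituitary, while the large dopamine cell groups that supply the striatum lie behind the hypothalamus, in the ventral midbrain.

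RNA from the hypothalamus of male ICR mice, an outbred stock, was labeled with Cy3 and hybridized to 12 arrays. All mice entered at 3 weeks of age and had water in both tubes until day 5. From then on the water group had water in both tubes, and the alcohol mice, housed singly, had a free choice between water and 5% or 10% alcohol. The labels sort the alcohol pools by intake into low drinkers, early high drinkers and late high drinkers, with 3 pools each, beside 3 water pools. Which pool drank which strength is not in the labels, and intake was chosen by each mouse and not assigned. The labels place sacrifice on day 51, and the design text lets drinking last to day 57. Each water pool held RNA of 3 mice, and the alcohol pools held 1 to 3 mice each, 19 in all, so the p-values measure the spread between pools.

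Each of 3 slides carried 4 arrays. All water pools shared slide 1, scanned on a later day, with low drinker pool 1. On slide 2 were the remaining low drinkers (pools 2, 3) beside early high drinkers (pools 1, 2), and every late high drinker pool was on slide 3 together with the last early high drinker pool, number 3. Between 67.0% and 79.3% of the spots of an array were well above background. Over 29521 probes, the array of low drinker pool 2 correlated with the others at a mean r of 0.983, against 0.991 to 0.993 for each of the other arrays, so member results that moved with it are also given without it. All 10 hypothalamus markers had values, among them Hcrt, Pmch, Pomc, Avp and Oxt, with a mean log2 level of 1.47 to 1.85 on every array. Levels are log2 signal intensities minus the 75th percentile of the array, so that 0 stands for that percentile, and levels of different probes are not set against each other.

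Th, which encodes tyrosine hydroxylase, is the enzyme that sets the pace of dopamine synthesis. Its probe lay at chr7:150079917-150079976 of mm9, on the minus strand, and was printed on 10 spots of each array. The probe is shown because all values of Th below come from its 60 bases. Also shown are the 250 bases before the start of Th, from the RefSeq table of GRCm38.p6 at chr7:142899996-142900245 (minus strand, read in the direction of the gene). The part of promoter elements in the levels of Th was not tested. Capitals mark a cAMP response element, TGACGTCA.
Th probe: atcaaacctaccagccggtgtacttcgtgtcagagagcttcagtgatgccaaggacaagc
Th promoter: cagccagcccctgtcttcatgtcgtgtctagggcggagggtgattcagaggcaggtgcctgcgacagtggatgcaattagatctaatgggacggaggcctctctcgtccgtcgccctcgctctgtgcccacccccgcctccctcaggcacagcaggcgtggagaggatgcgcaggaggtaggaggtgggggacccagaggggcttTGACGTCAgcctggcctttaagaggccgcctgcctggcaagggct
The element begins 45 bases before the start of the gene, and 1.55% of 32851 promoters of this length in the table held it on either strand. A GC box, GGGCGG, also stands here and begins 220 bases before the start. In the same window no cAMP response element was found for Ddc, Slc18a2 or Slc6a3.

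The log2 level of Th was 0.20, 0.73 and 0.63 in water pools 1 to 3, and 1.07, 0.99 and 1.05 in the low drinker pools. It was 1.02, 1.57 and 1.08 in the early high drinker pools, and 0.35, 1.25 and 0.86 in the late high drinker pools. All low and early high drinker pools lay above all water pools, whereas late high drinker pool 1 lay below 2 of the 3 water pools. The group means ran upward from 0.52 ± 0.28 in water through 0.82 ± 0.45 in late high drinkers and 1.04 ± 0.04 in low drinkers to 1.22 ± 0.30 in early high drinkers (SD, n = 3 each), and each neighbor in this order overlapped the next. The SD between the 10 spots of an array was 0.02 to 0.11, below the SD between pools in every group except the low drinkers.

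Alcohol pools averaged 1.03 ± 0.32 (SD, n = 9) for Th, 0.51 above water (SE 0.20, 95% interval 0.07 to 0.94, a 1.42-fold difference). In limma the unadjusted p was 0.0253 and the adjusted p was 0.819, and the exact permutation test, two-sided over 220 splits, gave p = 0.0364, where 0.00455 is the smallest it allows. Th was higher than the water mean in 8 of 9 alcohol pools, but the difference did not pass adjustment over 32376 probes. Without water pool 1 it was 0.35. In whole tissue, fewer cells of a type and less RNA per cell cannot be told apart. Within slide 1, the only slide with water, low drinker pool 1 lay 0.55 above the water mean and above each of the 3 water pools.

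Ddc encodes the decarboxylase that completes dopamine synthesis and also acts in serotonin neurons. It had probes at chr11:11715320-11715379 and chr11:11776262-11776321 of mm9, both on the minus strand, and both are shown because their values can be read against each other as a check.
Ddc probe 1: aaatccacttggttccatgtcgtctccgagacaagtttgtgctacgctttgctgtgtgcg
Ddc probe 2: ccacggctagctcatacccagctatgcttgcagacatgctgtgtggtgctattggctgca
With probe 1 the log2 level was 2.40, 2.79 and 2.78 in water, 3.00, 2.92 and 3.11 in low drinkers, 2.93, 3.10 and 2.86 in early high drinkers, and 2.41, 2.87 and 2.66 in late high drinkers. Water pool 1 and late high drinker pool 1 were lowest, as they were for Th, and by this probe every low and early high drinker pool lay above every water pool. Probe 2 gave -0.69, -0.30 and -0.20 in water, 0.03, -0.05 and -0.00 in low drinkers, -0.30, 0.11 and -0.12 in early high drinkers, and -0.91, -0.45 and -0.45 in late high drinkers. By probe 2 the low drinker pools again lay above all water pools, but early high drinker pool 1 lay below water pools 2 and 3. The levels of the 2 probes varied together over the 12 arrays (r = 0.92). Alcohol pools averaged 0.22 more than water on the log2 scale (SE 0.14, 95% interval -0.09 to 0.52, limma adjusted p = 0.819), and 0.09 more without water pool 1. By probe 2 the difference was 0.16 (SE 0.20, 95% interval -0.27 to 0.59, limma adjusted p = 0.874). It rested on water pool 1 (-0.69), since the alcohol mean of -0.24 lay between water pools 2 (-0.30) and 3 (-0.20).

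Slc18a2 encodes the vesicular monoamine transporter, which dopamine neurons share with noradrenergic, serotonergic and histaminergic neurons. Its log2 level was 0.39, 0.55 and 0.57 in water, 1.12, 0.90 and 0.96 in low drinkers, 0.81, 1.10 and 0.85 in early high drinkers, and 0.17, 0.92 and 0.66 in late high drinkers. By this probe all alcohol pools lay above all water pools except late high drinker pool 1, which was the lowest of the 12. The alcohol mean exceeded the water mean by 0.33 (SE 0.16, 95% interval -0.03 to 0.69, limma unadjusted p = 0.0697, adjusted p = 0.819). Its second probe, at chr19:59369846-59369906 of mm9 beside the first at chr19:59370102-59370161, followed the first (r = 0.92), with a difference of 0.18 (SE 0.18), but by it late high drinker pool 3 (-0.28) also lay below water pools 2 (-0.07) and 3 (-0.03). Most of that difference rested on water pool 1 (-0.42), since the alcohol mean by this probe was 0.01.

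Slc6a3 encodes the dopamine transporter, the most specific of these genes to dopamine neurons. Its log2 level, from a probe at chr13:73715973-73716032 of mm9, was 0.70, 1.80 and 1.97 in water, 2.92, 2.79 and 2.76 in low drinkers, 2.21, 3.40 and 2.66 in early high drinkers, and -0.82, 3.09 and 2.21 in late high drinkers. It had the widest range of the 9 genes, 4.22 on the log2 scale or 18.7-fold between late high drinker pool 1 and early high drinker pool 2. The low drinker pools differed from each other by far less than the pools of any other group. The alcohol mean exceeded the water mean by 0.87 (SE 0.72, 95% interval -0.70 to 2.44, limma adjusted p = 0.832). It was 0.47 without water pool 1 and 1.26 without late high drinker pool 1, and within slide 1 low drinker pool 1 lay 1.43 above the water mean.
The 250 bases before the start of Slc6a3, at chr13:73536497-73536746 of GRCm38.p6 in the RefSeq table (plus strand), are shown beside those of Th, with GC boxes (GGGCGG, or CCGCCC on the other strand) in capitals.
Slc6a3 promoter: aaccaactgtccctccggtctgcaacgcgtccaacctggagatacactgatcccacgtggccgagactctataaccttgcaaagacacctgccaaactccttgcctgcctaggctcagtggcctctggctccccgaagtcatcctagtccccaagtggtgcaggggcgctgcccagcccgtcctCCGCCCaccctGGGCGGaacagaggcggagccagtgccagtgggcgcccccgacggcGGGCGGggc
A GC box stood in 32.7% of the 32851 promoters of this length. No cAMP response element was found in these letters, and a TATAAA motif, present in 12.4% of promoters, was found in neither sequence.

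**Figure D1:**
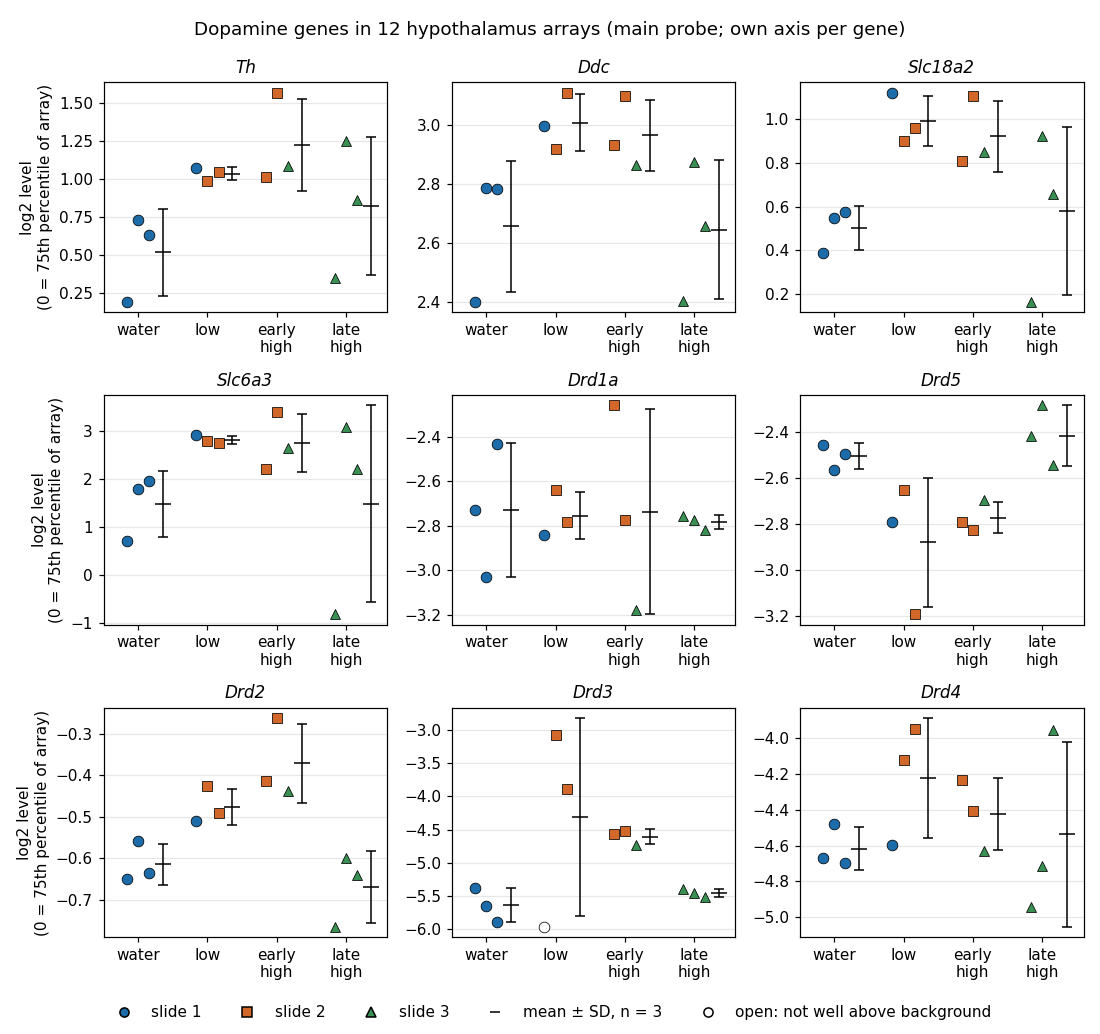
Log2 level of each gene in the 12 arrays by drinking group (0 is the 75th percentile of the array; each gene has its own axis), with a symbol for each pool, colored by slide, and the mean ± SD of 3 pools; an open symbol was not well above background. Th, Ddc, Slc18a2 and Slc6a3 are lowest in water pool 1 and late high drinker pool 1, and the late high drinker pools of Drd2 lie below those of the early high drinkers.

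The 4 genes of synthesis and transport ordered the arrays alike. Of their 6 probes, late high drinker pool 1 was lowest in 4 and water pool 1 in 2, and both stood among the lowest 3 arrays for all 6. Early high drinker pool 2 was highest for 4 of the 6 and among the highest 3 for all 6. Across the 12 arrays Th correlated with Ddc at r = 0.88 (rho = 0.78), with Slc18a2 at r = 0.90 (rho = 0.87) and with Slc6a3 at r = 0.88 (rho = 0.92), and Slc6a3 correlated with Slc18a2 at r = 0.94 (rho = 0.95). Permutation tests with 100000 resamples, adjusted over the 6 pairs tested, gave p = 0.00066, 0.0004, 0.0004 and 0.00012 for r and 0.00594, 0.00092, 0.0003 and 0.00012 for rho, and before adjustment 0.00044, 0.00014, 0.0002 and 2e-05 for r and 0.00396, 0.00046, 0.0001 and 2e-05 for rho. Without late high drinker pool 1 and water pool 1, the arrays farthest from the median of Th and of Slc6a3, r was 0.68, 0.83, 0.91 and 0.92. With each slide centered on its mean it was 0.91, 0.92, 0.90 and 0.93. Within single slides of 4 arrays these 4 pairs gave r between 0.61 and 0.99. The permutations exchanged all 12 arrays without regard to group or slide. The r without those pools, centered on slides or within slides was not tested.

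All 36 pairs among the 9 genes were computed, and the p-values are not adjusted for those that were not tested, whose values are descriptions. Beside the 4 pairs above, 2 others were tested and did not show such a relation. Drd1a and Drd2, receptors for the same transmitter, had r = 0.00 (permutation p = 0.986 before and after adjustment; rho = 0.02, p = 0.953 for both). Without early high drinker pools 1 and 3 it was -0.09, and slide-centered it was -0.53, with values from -0.88 to -0.15 within slides. Hdc, which encodes the histamine-making enzyme of the posterior hypothalamus and whose neurons use the same vesicular transporter, had r = -0.21 with Slc18a2 (permutation p = 0.522, adjusted 0.627; rho = -0.14, p = 0.668, adjusted 0.801). Without early high drinker pool 1 and late high drinker pool 3 it was -0.47, slide-centered it was -0.40, and within slides it ran from -0.98 to 0.76.

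**Figure D2:**
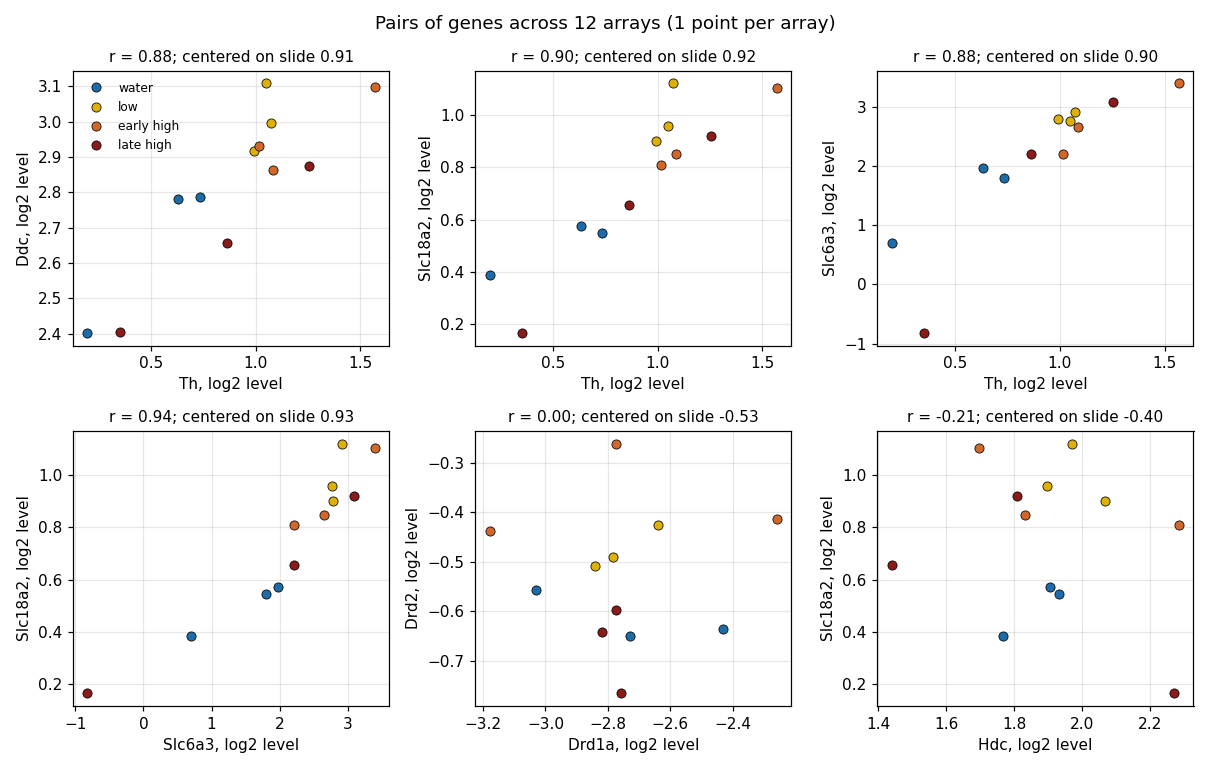
Log2 levels of 6 pairs of genes in 12 arrays, a point for each array colored by drinking group, with r over all arrays and r after centering each slide. The first 4 panels rise from the lower left, where water pool 1 and late high drinker pool 1 lie, while the Drd1a and Drd2 panel and the Hdc and Slc18a2 panel show no such line.

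The genes whose levels followed these members most closely, over 29521 probes with a value on all 12 arrays, are given as a description; all arrays share their slides with others. For Th they were Chrnb3 (r = 0.94), Pitx3 (r = 0.93) and Spsb1 (r = 0.92), and for Slc6a3 they were Chrnb3 (r = 0.96), Slc18a2 (r = 0.94) and Pitx3 (r = 0.94). Slc18a2 was followed by Chrnb3 (r = 0.96), Pitx3 (r = 0.94) and Slc6a3 (r = 0.94), and Ddc by Slc18a2 (r = 0.92), Pitx3 (r = 0.90) and Chrna5 (r = 0.90). Pitx3, a transcription factor of midbrain dopamine neurons, thus stood among the closest 3 for each of the 4 genes, and Chrnb3 and Chrna5 encode subunits of nicotinic acetylcholine receptors. Chrnb3 was not well above background in water pool 1, one of its lowest 2 arrays, and Chrna5 was well above background on 8 of 12 arrays. Centered on slide, the values of r lay between 0.84 and 0.98.

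Of the midbrain dopamine neuron markers, 4 were well above background on all 12 arrays. Pitx3 followed the order of the 4 genes of synthesis and transport most closely, Chrna6 and Aldh1a1 did in part, and Foxa1 did not. Pitx3 was at -2.95, -2.54 and -2.70 in water, -2.21, -1.95 and -2.11 in low drinkers, -2.26, -1.85 and -2.29 in early high drinkers, and -3.18, -2.09 and -2.44 in late high drinkers. As with Slc6a3, late high drinker pool 1 and water pool 1 were lowest and early high drinker pool 2 was highest. Chrna6, a nicotinic receptor subunit, was also lowest in water pool 1 (-5.26) and late high drinker pool 1 (-5.04) and highest in early high drinker pool 2 (-3.29). In late high drinker pool 2, however, it was at -4.30, below water pool 2 (-4.27), whereas Slc6a3 was at 3.09 there, above all water pools. Aldh1a1, a retinal dehydrogenase, was lowest in late high drinker pool 1 (1.57) and highest in early high drinker pool 2 (2.92), but its 2.24 in water pool 1 lay between 2.25 and 2.11 in the other water pools. Foxa1, a forkhead factor, went another way, with -4.26, -4.47 and -4.63 in water, -4.36, -2.88 and -3.32 in low drinkers, -3.83, -3.54 and -3.83 in early high drinkers, and -3.82, -3.67 and -4.08 in late high drinkers. Its highest array was low drinker pool 2, and neither water pool 1 nor late high drinker pool 1 was low within its group. En1, the fifth marker of the list, was well above background on 0 of 12 arrays. The other 4 had higher means in alcohol than in water, by 0.25 to 0.75 (median 0.47 against 0.03 over all probes), and none passed adjustment. Without water pool 1 the difference of Chrna6 was 0.08. Their mean log2 level was between -2.56 and -2.26 in water, between -1.97 and -1.48 in low drinkers, between -2.02 and -1.44 in early high drinkers, and between -2.62 and -1.91 in late high drinkers. How much midbrain tissue each pool held was not measured, and the part of these cells in the differences of Th, Ddc, Slc18a2 and Slc6a3 was not tested.

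**Figure D3:**
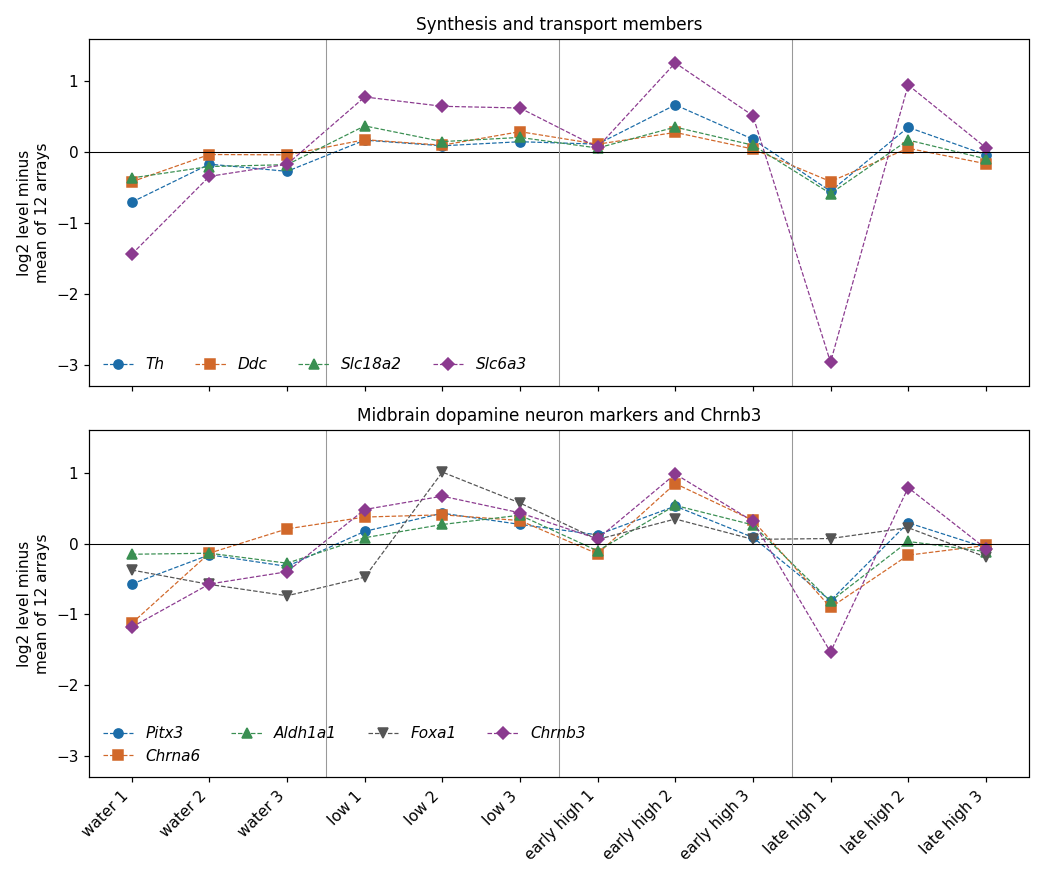
Log2 level minus the mean of 12 arrays for the 4 genes of synthesis and transport (upper panel) and for 4 midbrain dopamine neuron markers and Chrnb3 (lower panel); dashed lines only help the eye, since pools of a group have no order. The 4 genes of the upper panel are lowest in water pool 1 and late high drinker pool 1, as are Pitx3, Chrna6 and Chrnb3, whereas Aldh1a1 is low only in the latter and Foxa1 in neither relative to its group.

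Drd1a encodes the D1 receptor, and RefSeq now names it Drd1. Its log2 level, from a probe at chr13:54147277-54147336 of mm9, was -2.73, -3.03 and -2.43 in water, -2.84, -2.64 and -2.78 in low drinkers, -2.26, -2.77 and -3.18 in early high drinkers, and -2.76, -2.77 and -2.82 in late high drinkers. The groups overlapped fully, with means from -2.78 to -2.73, so no order can be read. Alcohol differed from water by -0.03 (SE 0.16, 95% interval -0.38 to 0.32, limma adjusted p = 0.978). Leaving out water pool 3 turned the sign, to 0.12, as did leaving out early high drinker pool 3 and the normexp background correction.

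Drd5 encodes the D5 receptor. With its bright probe, at chr5:38713278-38713337 of mm9, the log2 level was -2.45, -2.56 and -2.49 in water, -2.79, -2.65 and -3.19 in low drinkers, -2.79, -2.83 and -2.69 in early high drinkers, and -2.42, -2.28 and -2.54 in late high drinkers. Late high drinkers and water lay above low and early high drinkers, with no overlap between these sets, a split made after seeing the values. The share of all probes that split in this way was not counted. The group means stood in the reverse order of those of Ddc, whose level correlated with that of Drd5 at r = -0.70. The second probe of Drd5, at chr5:38711564-38711623, was well above background on 0 of 12 arrays and checks nothing.

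Drd2 encodes the D2 receptor, which serves both as a receptor on target cells and as an autoreceptor on dopamine neurons. Probe 1, at chr9:49215761-49215820 of mm9, gave log2 levels of -0.65, -0.56 and -0.64 in water, -0.51, -0.43 and -0.49 in low drinkers, -0.41, -0.26 and -0.44 in early high drinkers, and -0.77, -0.60 and -0.64 in late high drinkers. Probe 2, at chr9:49215047-49215106, is shown because it gave the same order of late and early high drinkers from other bases of the gene.
Drd2 probe 2: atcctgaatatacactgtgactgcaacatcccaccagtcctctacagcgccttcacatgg
With probe 2 the levels were -2.56, -2.41 and -2.26 in water, -2.34, -2.27 and -2.02 in low drinkers, -2.01, -1.98 and -2.30 in early high drinkers, and -2.86, -2.80 and -2.51 in late high drinkers. By both probes every late high drinker pool lay below every early high drinker pool. By probe 1 the means ran upward from -0.67 ± 0.09 in late high drinkers and -0.61 ± 0.05 in water, which overlapped, through -0.48 ± 0.04 in low drinkers to -0.37 ± 0.10 in early high drinkers (SD, n = 3 each), which overlapped in turn. The level of Drd2 correlated with those of Th, Ddc, Slc18a2 and Slc6a3 at r = 0.80, 0.81, 0.79 and 0.75 over the 12 arrays, a description with no test.

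Drd3 encodes the D3 receptor, found mostly in limbic regions. The 60 bases of its probe map to both ends of chr16:43762591-43790736 of mm9, and they are shown because a single dim probe carried all its values.
Drd3 probe: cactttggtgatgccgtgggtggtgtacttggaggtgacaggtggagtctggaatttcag
Its log2 level was -5.38, -5.65 and -5.89 in water, -5.96, -3.08 and -3.90 in low drinkers, -4.57, -4.52 and -4.73 in early high drinkers, and -5.39, -5.45 and -5.51 in late high drinkers. The 4 arrays of slide 2 were the highest of the 12, and early high drinker pool 3 came next. Low drinker pool 1 was lowest and, as the only one, not well above background. The low drinkers thus held both the lowest and the highest array, on different slides, and the part of the slide was not tested. The alcohol mean exceeded water by 0.85 (SE 0.51, 95% interval -0.26 to 1.95, limma adjusted p = 0.819), 0.63 without low drinker pool 2, but on slide 1 low drinker pool 1 differed from water by -0.33.

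Drd4 encodes the D4 receptor, a D2-like receptor best known from cortex and retina. Its brighter probe, at chr7:148480683-148480742 of mm9, gave log2 levels of -4.67, -4.48 and -4.70 in water, -4.60, -4.12 and -3.95 in low drinkers, -4.23, -4.41 and -4.63 in early high drinkers, and -4.94, -4.71 and -3.96 in late high drinkers. The late high drinkers alone spanned nearly the whole range, and no group was apart from the others. Alcohol differed from water by 0.22 (SE 0.20, 95% interval -0.22 to 0.66, limma adjusted p = 0.845). The dimmer probe, at chr7:148481958-148482017, was well above background only in low drinker pool 2.

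Whether drinking alcohol at all changed these genes was asked by setting the 9 alcohol pools against the 3 water pools. After adjustment in limma no gene of the 9 was under 0.05, and 0% of all 32376 probes were. At an unadjusted p under 0.05 there was 1 of 9, Th, against 5.53% of all probes. Between the sides, 0 of 9 were free of overlap, against 1.31% of probes measured on all 12 arrays. The alcohol mean was higher for 7 of the 9 and lower for Drd1a and Drd5, with a median of 0.22 against 0.03 over all probes. The 3 water pools shared slide 1 and its scan day with just low drinker pool 1, so alcohol and slide cannot be told apart for the other 8 alcohol pools.

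High drinkers were set against low drinkers to ask whether the genes followed the amount drunk. None of the 9 passed adjustment, as 0.0744% of 32250 probes did. At an unadjusted p under 0.05 in limma the intake groups differed in 1 of 9, Drd5, against 15.5% of all probes. Drd5 was 0.29 higher in high drinkers (SE 0.11, 95% interval 0.04 to 0.53, limma unadjusted p = 0.0266, adjusted p = 0.269) and above the low drinker mean in 6 of 6 pools, yet the exact permutation p was 0.179 over 84 splits. Without low drinker pool 3 it was 0.13. No gene was free of overlap, against 4.62% of probes, and 8 of 9 were lower in high drinkers, with a median of -0.20 against -0.06 over all probes, although the sign turned for Drd1a and Drd4 with quantile normalization and for Th, Drd1a and Drd2 both with no scaling and with slide as a fixed block.

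Ddc differed between high and low drinkers by -0.20 with probe 1 (SE 0.12, 95% interval -0.47 to 0.07, limma adjusted p = 0.427), with 5 of 6 high drinker pools below the low drinker mean. With probe 2 it differed by -0.35 (SE 0.14, 95% interval -0.66 to -0.03, limma unadjusted p = 0.0358, adjusted p = 0.292), again with 5 of 6 below. Slc18a2 differed by -0.24 (SE 0.15) and -0.20 (SE 0.15) with its 2 probes, and the first of these was -0.14 without late high drinker pool 1. That pool was lowest by the second probe as well (-0.65), so the second difference was also smaller without it. Th differed by -0.01 (SE 0.20, 95% interval -0.47 to 0.44), and its sign turned under several settings, to 0.10 without late high drinker pool 1. Slc6a3 differed by -0.70 (SE 0.72), and by -0.12 without late high drinker pool 1. Drd3 differed by -0.72 (SE 0.49, limma adjusted p = 0.480), a value that rested on the low drinker arrays. Without low drinker pool 1, the array not well above background, it was -1.54 with a limma adjusted p of 0.00837, and without low drinker pool 2, the array that stood apart, it was -0.10 (limma adjusted p = 0.969). Within slide 2 the early high drinkers lay 1.06 below the low drinkers for Drd3 (difference -1.06, 2 pools each).

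Late and early high drinkers were compared to ask whether the timing of high intake mattered. None of the 9 genes passed adjustment, nor did any of 33141 probes (0%). At an unadjusted p under 0.05 there were 3 of 9, Ddc, Drd2 and Drd5, against 12.1% of all probes. Sides without overlap were found for 3 of 9, Drd2, Drd3 and Drd5, against 21.5% of probes. The late mean was lower for 8 of 9, with a median of -0.32 against -0.03 over all probes, although the sign of Drd1a and Drd4 turned with quantile normalization, with no scaling and with slide as a fixed block. With 3 pools against 3, the exact permutation test cannot go below p = 0.1, the value it gave for each of these 3 genes.

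Drd2 was 0.30 lower in late high drinkers by probe 1 (difference -0.30, SE 0.07, 95% interval -0.45 to -0.14, limma unadjusted p = 0.00158, adjusted p = 0.324). By probe 2 the difference was -0.63 (SE 0.13, 95% interval -0.93 to -0.33, limma unadjusted p = 0.000973, adjusted p = 0.324). Both probes had the smallest unadjusted p of all member probes here, and every late pool was below the early mean. Within slide 3 the late pools lay below early high drinker pool 3 as well, with differences of -0.23 and -0.43. Drd5 went the other way, with 0.36 more in late high drinkers (SE 0.13, 95% interval 0.07 to 0.64, limma unadjusted p = 0.0189, adjusted p = 0.354), and 0.28 more within slide 3.

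The genes of synthesis and transport all had lower means in late high drinkers, and smaller differences without late high drinker pool 1. Ddc differed by -0.32 (SE 0.14, limma unadjusted p = 0.0456, adjusted p = 0.403), and by -0.20 without that pool. Th differed by -0.40 (SE 0.23) and by -0.16 without it, Slc18a2 by -0.34 (SE 0.17) and by -0.13, and Slc6a3 by -1.27 (SE 0.84) and by -0.11. The second probes of Ddc and Slc18a2 gave -0.50 each (SE 0.16 and 0.17), with every late pool below every early pool. Midbrain dopamine neuron markers were lower in late high drinkers for the 4 of 5 well above background on all arrays, from -0.12 for Foxa1 to -0.71 for Chrna6 (median -0.48 against -0.03 over all probes). Without late high drinker pool 1 their median was -0.21, and within slide 3 it was -0.42. Fev, a serotonergic transcription factor, differed by -1.43 (SE 0.25, limma unadjusted p = 0.00019, adjusted p = 0.272), and by -1.42 without that pool. Of the pituitary hormone genes, Cga differed by 1.76 (SE 0.73), Tshb by 1.39 (SE 0.43) and Lhb by -0.21 (SE 0.17). Within slide 3 these were 0.65, 0.93 and 0.11, and Fev was at -1.89. Thalamus markers were higher in late high drinkers for 4 of 4, with a median of 0.91, but within slide 3 for 1 of 4, with a median of -0.28. The part of these cells in the differences of the members was not tested.

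**Figure D4:**
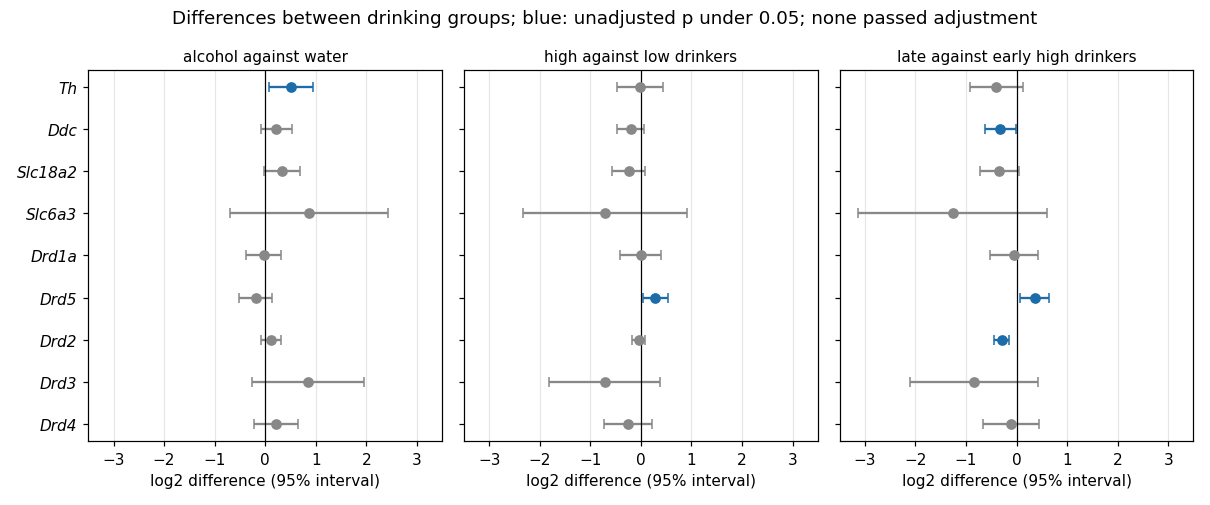
Log2 difference of each gene in the 3 comparisons with its 95% interval from limma; positive values are higher in the side named first, and blue marks an unadjusted p under 0.05. All intervals of Slc6a3 and Drd3 are wide, and the Drd2 interval in the comparison of late and early high drinkers is the narrowest that leaves out 0.

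Genes around the dopamine pathway were counted in the same way for alcohol against water, and none passed adjustment. Of the 5 enzymes of the tetrahydrobiopterin cofactor that Th needs, 1 was higher and 4 were lower (median -0.05), from Gch1 at 0.11 (SE 0.11), the first enzyme of cofactor synthesis, to Pts at -0.14 (SE 0.08), which without water pool 1 were 0.06 and -0.09. Of the genes of dopamine breakdown, Maoa, a monoamine oxidase, was 0.05 higher (SE 0.05), while Maob, the other, differed by -0.05 (SE 0.07), and without water pool 1 these were 0.09 and -0.08. Among 8 genes of receptor signaling 7 were higher, with a median of 0.07, and the largest difference, 0.24 (SE 0.27), was that of Ppp1r1b, the phosphoprotein DARPP-32, which was 0.11 without low drinker pool 2 and 0.15 without water pool 1, beside -0.02 (SE 0.08) for Adcy5, an adenylyl cyclase.

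Of 12 dopamine neuron transcription factors 8 were well above background on all arrays, and 6 of these were higher in alcohol, with a median of 0.20. Foxa1 differed by 0.75 (SE 0.24, limma unadjusted p = 0.0103, adjusted p = 0.819). Nr4a2, which acts on Th in midbrain neurons, differed by 0.23 (SE 0.09, limma unadjusted p = 0.0312, adjusted p = 0.819). Pitx3 and Foxa1 belong to the midbrain list above as well, so the lists are not separate evidence. Of 4 genes of the response to prolactin 3 were higher (median 0.02), from Stat5a at 0.16 (SE 0.08) to Cish at -0.01 (SE 0.06), whose sign turned without low drinker pool 2 and without water pool 1, when the median was 0.08.

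Markers of neighboring amine neurons and tissues set the frame for these values. Of the other amine enzymes and transporters, Slc6a2 was well above background on 0 arrays, Slc6a4 on 1, Tph2 on 2 and Dbh on 6 of 12, so no difference is given for these 4. Of 4 noradrenergic markers 0 were well above background on all 12 arrays, and of 3 serotonergic markers only Fev was, with 0.35 more in alcohol (SE 0.39). Hdc, the histaminergic marker, was 0.05 higher in alcohol (SE 0.15) and Pnmt 0.03 higher (SE 0.21), but both signs turned without water pool 1, to -0.0007 and -0.06, and that of Pnmt without low drinker pool 2, to -0.07. Among markers well above background on all arrays, those higher in alcohol were 7 of 9 for hypothalamus (median 0.15), 3 of 5 for striatum (median 0.03), 4 of 4 for thalamus (median 0.27), 0 of 2 for cortex (median -0.23), 0 of 2 for choroid plexus (median -0.16) and 0 of 3 for pituitary (median -0.33). Without water pool 1 the hypothalamus median was 0.06, with 8 of 9 higher, and that of choroid plexus -0.05, with 1 of 2 higher. For high against low drinkers, 3 of 3 such pituitary markers (median -0.96) and 4 of 4 such midbrain markers (median -0.28) were lower. Of all arrays, early high drinker pool 2 had the lowest pituitary mean (-3.17, over 4 markers) and late high drinker pool 1 the lowest midbrain mean (-2.62). The part of these single pools in the medians was not tested, nor was the part of such tissue in the member differences.

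The genes nearest in level to the receptors were other than those of the enzymes, again as a description over 12 arrays. Drd1a was followed most closely by Cfap206 (r = 0.92), Nhlrc3 (r = 0.88) and Ptprt (r = 0.86), and Drd5 by Washc5 (r = 0.93), Elp2 (r = 0.90) and Rnf44 (r = 0.88). Drd2 was followed by Stra6l (r = 0.95), Actg1 (r = 0.90) and Tecpr2 (r = 0.90), and Drd4 by Sun2 (r = 0.89) and Slc25a25 (r = 0.88). None of them was on the list of midbrain dopamine neuron markers. Stra6l was well above background on 8 of 12 arrays and Cfap206 on 11. No such genes were sought for Drd3, which was itself not well above background on 1 array.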

How the data were processed

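Hypothalamic RNA of 12 pools of male ICR mice was measured on Agilent 4 × 44 K arrays. For every array the authors deposited scanner output, in which each spot has a processed signal intensity, corrected for background by Feature Extraction 10.5.1.1, on a linear scale and not scaled between arrays; probe positions are of mm9. They also deposited a table of intensity per probe, which matched the scanner signals within 0.001 on the log2 scale for 490941 of 490941 single-spot values; its column medians were 194.69 to 245.50.

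Intensities of 43379 non-control spots were put on a log2 scale and reduced by the 75th percentile of the array (1512 to 1853). Values of non-uniform outliers, or of a signal/noise ratio below 2, were left missing, no spot was saturated, and spots of a probe were averaged. A probe was tested with values on over 50% of the arrays of each side; its brightest tested probe stood for a gene. RefSeq symbols matched 25097 of 41174 probes. Comparisons used limma 3.58.1 in R 4.3.3 with Benjamini-Hochberg adjustment over all probes tested. Alcohol was set against water in a 2-group design, and high against low and late against early drinkers in a 4-group design, all over 12 arrays. Exact permutation and correlation tests used scipy 1.17.1 and R, two-sided, and figures matplotlib 3.10.9. The steps were tested on simulated data. No 2 of the 12 arrays held identical values.

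Members and lists were chosen with earlier results of these data known. All 9 members and every probe are named. Of a pathway list, genes at an unadjusted p under 0.05 for alcohol against water and the largest positive and negative differences are named, and of likeness, the closest 3 genes, except a few genes not reported here. List counts take genes well above background on all 12 arrays, a choice made after seeing the data, and marker genes named singly were chosen after their values were seen. Alternatives covered scaling, background correction, filters, the deposited table, slide and replicate blocks, the test, the samples in the fit, the probe and each array left out. Behavior and real-time PCR were left out. The number of arrays limits the precision.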

Additional observations from a re-analysis of the deposited data

Results flagged for a closer look

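Among the 9 alcohol arrays, the level of late high drinker pool 1 lay far below the rest for Slc6a3, with a gap to the next array of 0.717 of the whole range. For Slc18a2 the same array was lowest by the brighter probe, with a gap of 0.514 of the range. Both gaps exceed Dixon's 95% critical value for 9 arrays, which chance exceeds in about 1 of 20 groups. The second probe of Slc18a2 was not among the measures. By it the same array was at -0.65, the next lowest alcohol array at -0.28 and the highest at 0.36, a gap short of the critical value. Slc6a3 and Slc18a2 varied together (r = 0.94), so these flags are not separate results. In all 10 measures were looked at, the 9 genes and the mean of the midbrain dopamine neuron markers. For that mean late high drinker pool 1 was lowest too, but the gap of 0.438 fell short of the critical value, as did those of Th (0.422) and Ddc (0.357) with the same array lowest. The part of midbrain tissue in these low values was not tested.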

How the results depend on the processing

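With adjusted p under 0.05 in limma, 0 probes were called for alcohol against water (1789 at an unadjusted p under 0.05, and 0 with the methods' t-test), 24 for high against low drinkers and 0 for late against early high drinkers (4025 unadjusted). For alcohol against water only slide as a fixed block changed this, to 4. For high against low drinkers the count was 1 with quantile normalization, 364 with normexp, 10 with slide as a random block, 9 with only the arrays of both sides, and 0 with no signal/noise filter, with probes well above background on all arrays, with the methods' t-test and with water pool 1 and late high drinker pool 1 left out, the last chosen after seeing the data. Leaving out 1 array gave 0 (low drinker pool 2) to 2505 (low drinker pool 1), with 160 without late high drinker pool 3. For late against early high drinkers it was 5 with quantile normalization, 1 with no scaling, 2 with probes well above background on all arrays, 26 with slide as a fixed block, 1 with only the arrays of both sides, and 0 to 194 with 1 array left out (194 without early high drinker pool 3, 103 without late high drinker pool 3). The cause was not tested.

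Of the members' values under these settings, 4 of 227, 19 of 219 and 11 of 220 changed sign in the 3 comparisons, and 1 passed adjustment, that of Drd3 without low drinker pool 1 (-1.54). For alcohol against water Drd1a was 0.0013 with normexp and -0.18 to 0.12 with 1 array left out, and Drd3 was -0.33 with slide as a fixed block. For high against low drinkers Drd1a and Drd4 were 0.14 and 0.13 with quantile normalization, Th, Drd1a and Drd2 were 0.11, 0.12 and 0.083 with no scaling, while a fixed slide block gave 0.14, 0.39 and 0.0054, and Th and Drd1a were 0.0023 and 0.047 with slide as a random block. Th was 0.10 with both pools left out, and with 1 array left out Th was -0.12 to 0.10 and Drd1a -0.12 to 0.11. For late against early high drinkers Drd1a and Drd4 were 0.020 and 0.049 with quantile normalization, 0.11 and 0.041 with no scaling, and 0.40 and 0.093 under a fixed slide block. Drd1a was 0.025 with slide as a random block, Drd4 was 0.089 with both pools left out, the second Drd5 probe, not above background, was -0.37, and with 1 array left out Drd1a was -0.27 to 0.19 and Drd4 -0.40 to 0.089. With no scaling the median of all probes moved from -0.06 to 0.07 and from -0.03 to 0.12 in these last comparisons.

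Equal replicate numbers did not mark pairs: deviations of same-numbered pools correlated at -0.09 to 0.18, over 0.1 in 3 of 18 pairs. With the number as a replicate block the counts were 0, 0 and 0, and Th stayed at 0.51 for alcohol against water. All 3 water pools lie on 1 slide, pools differ in the number of mice, and dim probes (Drd3, Drd4) sit near background.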
